A study of Mus musculus with 4 samples.

Results

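The Hox cluster genes were taken as all rows of the deposited tables whose symbol was Hox, a cluster letter from a to d and a number. The rule found 39 of 22700 genes, of which 11 belonged to the Hoxa cluster, 10 to Hoxb, 9 to Hoxc and 9 to Hoxd. Hox genes encode homeodomain transcription factors that lie side by side in 4 clusters, and genes in the same relative place in different clusters are called a paralogue group. In the embryo, low-numbered (anterior) genes are switched on earlier and nearer the head, and high-numbered (posterior) genes later and nearer the tail and the limb tips, and mesenchymal cells of the adult skeleton are known to keep part of that pattern. In blood formation several Hoxa and Hoxb genes are active in stem and progenitor cells and decline as cells mature, and Polycomb and Trithorax protein complexes keep the clusters off or on.

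The study asked how diabetes alters the transcriptome of macrophages grown from bone marrow. The donors were male mice aged 12 weeks. The 4 libraries were 1 from diabetic db/db mice (BKS.Cg-m+/+leprdb/J) in GM-CSF, 1 from their db/+ control littermates (BKS.Cg-m+/+leprdb+/J) in GM-CSF, 1 from db/db mice in M-CSF and 1 from db/+ littermates in M-CSF. The db allele damages the leptin receptor gene Lepr in every tissue, and the db/+ controls carry 1 copy of it. Cultures ran for 7 to 8 days in 20 ng/ml of GM-CSF or 10 ng/ml of M-CSF, which are growth factors for cells of the macrophage line. The sources used here do not say which bones were flushed, whether animals were pooled, or whether both cultures used the same animals.

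Each group held 1 library, so a difference between a pair of libraries had no replicate check. Depth lay between 25603389 and 28622703 recovered reads per library. Levels are normalised reads, in which each library's counts were scaled by its own factor, and 1 read was worth between 0.871 and 1.12 of them. Macrophage markers were abundant in all 4 libraries, and the integrin gene Itgam had 46867 normalised reads in the db/db and 44643 in the db/+ GM-CSF culture, and 38946 in the db/db and 40332 in the db/+ M-CSF culture. Lepr had 60.3 normalised reads in db/db and 49.4 in db/+ GM-CSF cultures, and 21.8 in db/db and 6.7 in db/+ M-CSF cultures. A level of the whole gene does not check a splice mutation.

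A gene was called detected at 6 reads or more, which make 3 full read pairs, since mates of a pair appeared to be counted separately. For intervals an odd read counted as a pair, so 5 reads entered them as 3 pairs but were not called detected. By that rule 4 of the 39 members were detected in the db/db and 3 in the db/+ GM-CSF culture, against 22 in the db/db and 22 in the db/+ M-CSF culture. Of all 22700 genes, 59.3% and 59.0% were detected in the db/db and db/+ GM-CSF cultures, and 66.1% and 68.7% in the db/db and db/+ M-CSF cultures. The 1100 olfactory receptor genes, which these cells are not known to use, gave the low-level background. By the same rule 0.909% and 0.727% of them were detected in the db/db and db/+ GM-CSF cultures, and 1.09% and 3.64% in the db/db and db/+ M-CSF cultures. At least 1 read fell on 8.18% and 9.73% of the olfactory receptor genes in the db/db and db/+ GM-CSF cultures, and on 29.5% and 46.5% in the db/db and db/+ M-CSF cultures. Single Hox reads were therefore not read as expression, least of all in the db/+ M-CSF library. A stricter rule, chosen after seeing the data, was the 95th percentile of olfactory receptor genes per kilobase of transcript. By it 21 members passed in the db/db and 13 in the db/+ M-CSF culture, against 66.8% and 64.2% of all 18494 genes with a length. In GM-CSF 5 passed in the db/db and 3 in the db/+ culture, against 62.4% and 62.1%.

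Only 3 members, Hoxb3 and Hoxb4 among them, were detected in all 4 libraries, and 12 were detected in none. The M-CSF libraries together held 27 detected members, of which 23 were detected in no GM-CSF library. How many of all genes were detected in M-CSF alone was not counted, so the count of 23 does not set the members apart from other genes. Of all 22700 genes, 6648 had no read in the db/db and 6738 in the db/+ GM-CSF library, against 3882 in the db/db and 2518 in the db/+ M-CSF library. Of the members, 28 had no read in the db/db and 31 in the db/+ GM-CSF library, against 6 in the db/db and 8 in the db/+ M-CSF library. In the GM-CSF cultures 25 members had no read in either library. A count of 0 allows up to 3 read pairs, which is 6.45 normalised reads in the db/db and 6.73 in the db/+ GM-CSF library, so members that were low in M-CSF could not be told from them at this depth. RNA was taken from whole cultures, in which fewer cells of a type and less RNA per cell cannot be told apart.

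**Figure D1:**
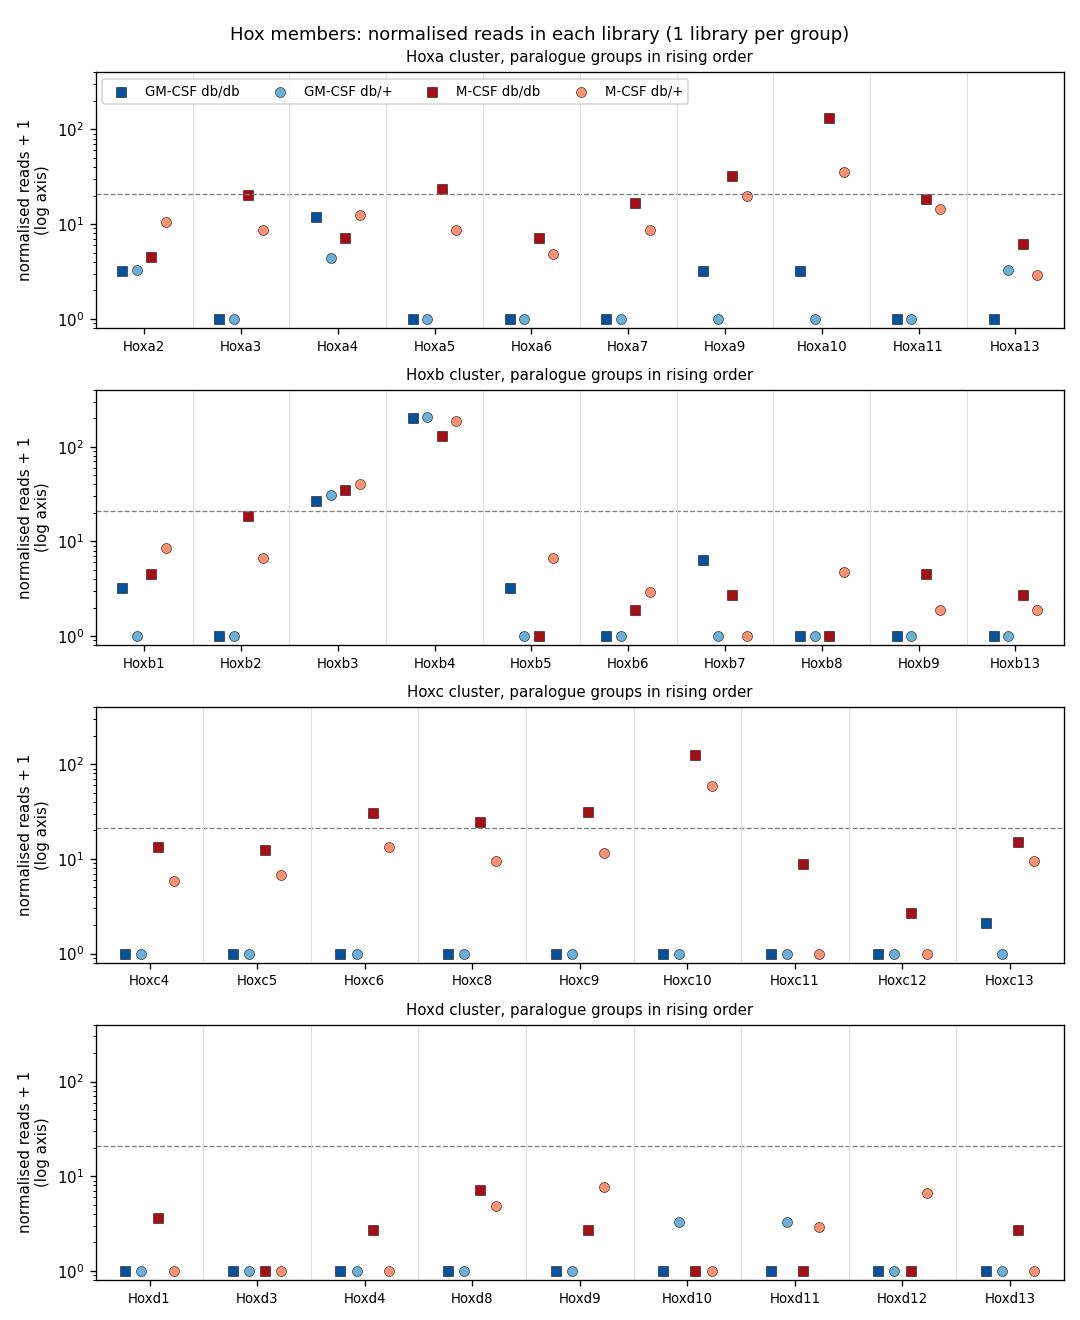
Normalised reads plus 1 (log axis) of the members reported by name, by cluster and in rising paralogue number, with 1 point for each of the 4 libraries. The dashed line marks 20 normalised reads: Hoxb3 and Hoxb4 lie above it in all 4 libraries, and the other members that cross it do so in M-CSF libraries alone.

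Of the 39 members, 2 reached 20 normalised reads in the db/db and 2 in the db/+ GM-CSF culture, against 10 in the db/db and 5 in the db/+ M-CSF culture. Of all genes 53.8% reached it in the db/db and 53.8% in the db/+ GM-CSF culture, and 57.3% in the db/db and 56.7% in the db/+ M-CSF culture. In at least 1 library, the minimum used for fold changes, it was reached by 10 members, among them Hoxa5, Hoxa9, Hoxa10, Hoxb3, Hoxb4, Hoxc6, Hoxc8, Hoxc9 and Hoxc10. Just inside that minimum stood Hoxa5 at 22.6 and just outside it Hoxa3 at 19.2, both in the db/db M-CSF culture. The other 29 members ranged from 0 to 10.8 normalised reads in the db/db GM-CSF culture and from 0 to 3.4 in the db/+ GM-CSF culture. In M-CSF the same 29 ranged from 0 to 19.2 in the db/db culture and from 0 to 13.3 in the db/+ culture, with medians of 3.5 and 3.8.

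Hoxb4, which expands blood stem cells when it is overexpressed, was the one member with a high level in every library. It had 200.1 normalised reads (186 reads) in the db/db and 204 (182 reads) in the db/+ GM-CSF culture, and 128 (147 reads) in the db/db and 186 (195 reads) in the db/+ M-CSF culture. Its level was lowest in the db/db M-CSF culture, and the other 3 libraries lay close together. Its neighbour Hoxb3, which is also active in blood progenitors, had 25.8 normalised reads in the db/db and 30.3 in the db/+ GM-CSF culture, and 34 in the db/db and 39.9 in the db/+ M-CSF culture. The ratios of Hoxb3 in all 4 comparisons had counting intervals that include 1.

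The other 8 Hoxb members were low. Hoxb2, a hindbrain gene, had 17.4 normalised reads (20 reads) in the db/db and 5.7 (6 reads) in the db/+ M-CSF culture, and none in either GM-CSF culture. Hoxb1 was detected only in the db/+ M-CSF culture, at 7.6 normalised reads (8 reads), as was Hoxb5, at 5.7 (6 reads). Per kilobase they had 3.64 and 3.01 there, below the 95th percentile of olfactory receptor genes at 4.07. By that stricter rule 3 Hoxb members passed in the db/db and 2 in the db/+ M-CSF culture. Hoxb6, Hoxb7, Hoxb8, Hoxb9 and Hoxb13 stayed below 6 reads in every library. Hoxb8, whose forced expression holds myeloid progenitors in an immature state, had 4 reads in the db/+ M-CSF culture and 0 in each of the others. Without Hoxb3 and Hoxb4 the Hoxb members summed to 9.8 normalised reads in the db/db and 0 in the db/+ GM-CSF culture, and to 28.7 in the db/db and 26.5 in the db/+ M-CSF culture.

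Hoxa members were detected along the whole cluster in M-CSF, 10 of 11 in the db/db and 9 of 11 in the db/+ culture, against 2 in the db/db and 1 in the db/+ GM-CSF culture. Hoxa9, which works with Meis1 in myeloid progenitors and in leukaemia, had 2.2 normalised reads (2 reads) in the db/db and 0 in the db/+ GM-CSF culture. It had 31.4 in the db/db and 19 in the db/+ M-CSF culture. Hoxa10, active in blood progenitors and in limb and skeletal mesenchyme, had 2.2 (2 reads) in the db/db and 0 in the db/+ GM-CSF culture, and 132 (152 reads) in the db/db and 34.2 (36 reads) in the db/+ M-CSF culture. The M-CSF values of Hoxa10 were thus far apart by genotype and both above the GM-CSF values.

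Hoxa5, which patterns lung and neck skeleton, had no read in either GM-CSF culture and 22.6 normalised reads in the db/db and 7.6 in the db/+ M-CSF culture. Hoxa3, needed for the thymus, had 19.2 in the db/db and 7.6 in the db/+ M-CSF culture, and Hoxa7 had 15.7 in the db/db and 7.6 in the db/+ M-CSF culture. Hoxa11, which patterns the middle segment of the limb, had 17.4 in the db/db and 13.3 in the db/+ M-CSF culture. None of the 3 had a read in GM-CSF. Hoxa4 was detected in GM-CSF in the db/db culture alone, with 10.8 normalised reads (10 reads) in the db/db and 3.4 (3 reads) in the db/+ culture, and 6.1 in the db/db and 11.4 in the db/+ M-CSF culture. Hoxa2, Hoxa6 and Hoxa13 reached at most 9.5 normalised reads.

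Hoxc members separated the cultures most sharply. By the rule of 6 reads, 8 of the 9 were detected in the db/db and 6 in the db/+ M-CSF culture, and 0 in either GM-CSF culture. The whole cluster held 1 read in the db/db (Hoxc13) and 0 in the db/+ GM-CSF culture. Hoxc10, a gene of the lumbar trunk and hindlimb, had 123 normalised reads (141 reads) in the db/db and 58.0 (61 reads) in the db/+ M-CSF culture. Hoxc9 had 30.5 in the db/db and 10.5 in the db/+ M-CSF culture, Hoxc6 had 29.6 in the db/db and 12.4 in the db/+ culture, and Hoxc8 had 23.5 in the db/db and 8.6 in the db/+ culture. These 3 pattern the thoracic trunk. Hoxc13, known for its part in hair, had 13.9 in the db/db and 8.6 in the db/+ M-CSF culture. Hoxc4 (12.2 in db/db, 4.8 in db/+), Hoxc5 (11.3 in db/db, 5.7 in db/+) and Hoxc11 (7.8 in db/db, 0 in db/+) were lower, and Hoxc12 had 2 reads in the db/db M-CSF culture alone.

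Hoxd members, best known from limb and digit patterning, were close to background throughout. Hoxd8 was detected in the db/db M-CSF culture with 7 reads, and Hoxd9 and Hoxd12 in the db/+ M-CSF culture with 7 and 6 reads. Hoxd1, Hoxd4, Hoxd10, Hoxd11 and Hoxd13 had at most 3 reads in any library, and Hoxd3 had none in all 4. The 9 members summed to 0 normalised reads in the db/db and 4.6 in the db/+ GM-CSF culture, and to 13.8 in the db/db and 18.1 in the db/+ M-CSF culture.

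Promoters are printed for Hoxb4, the highest of the members detected in all 4 libraries. Those of Hoxa5, Hoxa9 and Hoxa10, which were at or near 0 in GM-CSF and present in M-CSF, are printed too. Each is the 250 bases before the RefSeq start of the gene (build GRCm38.p6), written 5′ to 3′ along the gene's own strand, and Hoxa10 has a pair of starts. Capitals mark matches on either strand to 5 motifs: the E-box CACGTG, the CCAAT box, the TATA box TATAAA, the GC box GGGCGG and the Hox-Pbx composite TGATNNAT. No marked match overlaps another.
Hoxb4, chr11:96318017-96318266, + strand: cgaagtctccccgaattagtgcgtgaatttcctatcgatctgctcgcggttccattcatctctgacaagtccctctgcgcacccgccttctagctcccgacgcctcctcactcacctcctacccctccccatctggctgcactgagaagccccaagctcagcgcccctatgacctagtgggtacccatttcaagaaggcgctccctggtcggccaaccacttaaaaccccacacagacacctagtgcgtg
Hoxa5, chr6:52204588-52204837, - strand: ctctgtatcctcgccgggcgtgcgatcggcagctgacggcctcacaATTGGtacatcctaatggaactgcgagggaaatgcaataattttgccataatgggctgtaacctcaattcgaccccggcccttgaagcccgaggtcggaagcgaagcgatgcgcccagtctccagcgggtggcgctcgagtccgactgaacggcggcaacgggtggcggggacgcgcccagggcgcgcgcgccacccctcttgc
Hoxa9, chr6:52227371-52227620, - strand: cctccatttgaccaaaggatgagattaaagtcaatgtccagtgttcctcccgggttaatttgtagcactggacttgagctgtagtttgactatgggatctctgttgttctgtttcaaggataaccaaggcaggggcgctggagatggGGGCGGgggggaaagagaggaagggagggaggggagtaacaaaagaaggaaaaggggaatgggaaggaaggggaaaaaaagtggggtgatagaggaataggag
Hoxa10 (upstream start), chr6:52240855-52241104, - strand: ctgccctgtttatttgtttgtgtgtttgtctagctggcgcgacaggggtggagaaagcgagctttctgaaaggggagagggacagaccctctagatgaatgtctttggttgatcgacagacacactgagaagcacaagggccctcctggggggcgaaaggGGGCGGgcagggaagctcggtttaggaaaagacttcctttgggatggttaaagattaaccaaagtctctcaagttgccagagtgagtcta
Hoxa10 (downstream start), chr6:52234940-52235189, - strand: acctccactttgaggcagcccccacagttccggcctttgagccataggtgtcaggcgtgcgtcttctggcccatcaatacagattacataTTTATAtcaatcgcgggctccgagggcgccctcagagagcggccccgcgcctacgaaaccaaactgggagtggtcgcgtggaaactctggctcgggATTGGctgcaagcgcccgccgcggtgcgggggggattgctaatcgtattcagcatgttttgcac

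The Hoxb4 window held none of the 5 motifs. The Hoxa5 window held 1 CCAAT match, the Hoxa9 window and the upstream Hoxa10 window 1 GGGCGG match each, and the downstream Hoxa10 window 1 CCAAT and 1 TATAAA match. Such matches are common: of 32851 promoter windows of this length, 33.8% held CCAAT, 32.7% GGGCGG, 12.4% TATAAA, 7.68% TGATNNAT and 6.02% CACGTG. Hox promoters were found for 22 of the 39 members (24 windows), of which 14 windows held CCAAT, 10 GGGCGG, 4 TATAAA, 4 TGATNNAT and 4 CACGTG. CpG dinucleotides numbered 28 in the Hoxa5 window, 20 in the downstream Hoxa10 window, 14 in the Hoxb4 window, 7 in the upstream Hoxa10 window and 3 in the Hoxa9 window, where the median promoter had 6.

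Position along the clusters was compared per kilobase of transcript, with lengths from GENCODE M21 for all 39 members. Anterior members are those of paralogue groups 1 to 3, central ones 4 to 8 and posterior ones 9 to 13. None of the 16 posterior members was detected in either GM-CSF culture, against 8 in the db/db and 8 in the db/+ M-CSF culture. Against the 95th percentile of olfactory receptor genes per kilobase, 8 passed in the db/db but 5 in the db/+ M-CSF culture, and 0 in GM-CSF. Posterior members made up 1.89% of the Hox signal per kilobase in the db/db and 5.07% in the db/+ GM-CSF culture, and 47.8% in the db/db and 30.9% in the db/+ M-CSF culture. Central members made up 85.5% in the db/db and 81.2% in the db/+ GM-CSF culture, and 36.7% in the db/db and 49.2% in the db/+ M-CSF culture. The central share in GM-CSF was mostly Hoxb4, which alone gave 74.0% in the db/db and 79.1% in the db/+ culture.

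Per kilobase Hoxb4 was the highest member in 3 libraries, at 78.0 normalised reads in the db/db and 79.5 in the db/+ GM-CSF culture and 72.3 in the db/+ M-CSF culture. In the db/db M-CSF culture it stood at 49.9, behind Hoxc10 at 64.3 and Hoxa10 at 51.6. In the db/+ M-CSF culture Hoxc10 came second at 30.4. In GM-CSF the second place went to Hoxb3, at 8.09 in the db/db and 9.50 in the db/+ culture.

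**Figure D2:**
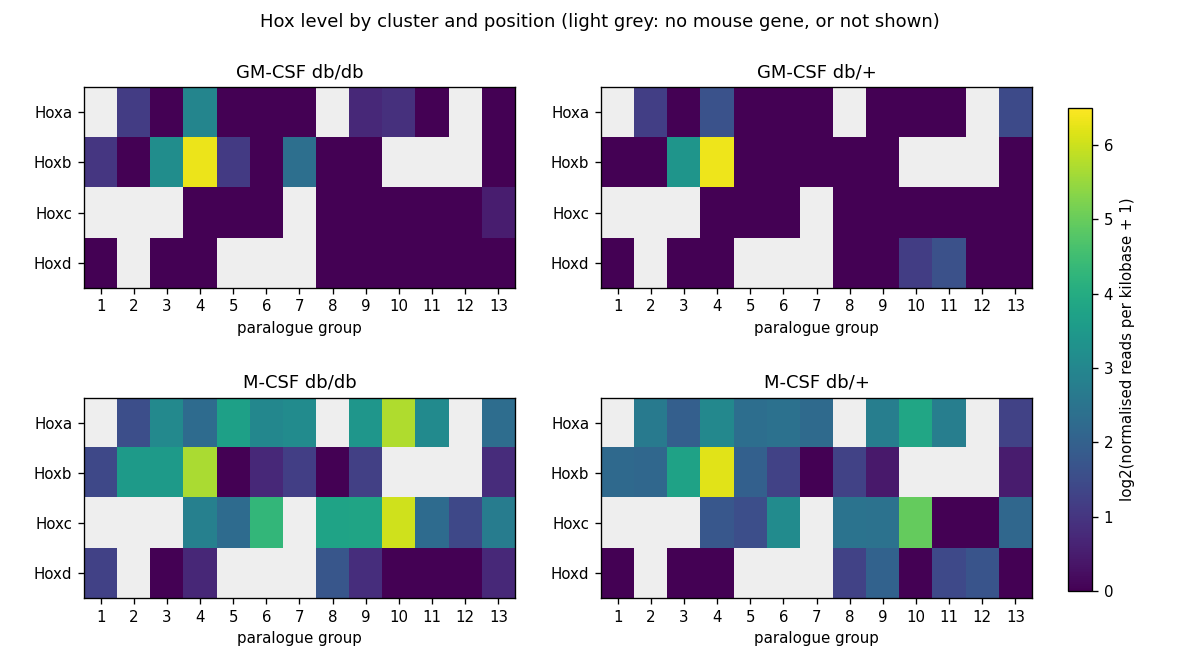
Level of each member as log2(normalised reads per kilobase + 1), by cluster (rows) and paralogue group (columns), with 1 panel per library; light grey cells have no mouse gene or are not shown. In the 2 GM-CSF panels the brightest cells are Hoxb4 and, more weakly, Hoxb3, with Hoxa4 and Hoxb7 next in the db/db panel. In the 2 M-CSF panels signal runs along the Hoxa and Hoxc rows. Of the cells shown in those rows Hoxa10 and Hoxc10 are the brightest, with weaker signal beyond them, and Hoxb4 is bright in both panels too.

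GM-CSF and M-CSF cultures were compared over both genotypes with an additive model in limma (culture type and genotype, Benjamini-Hochberg adjusted over 13642 genes). The 2 genotypes served as the 2 samples of each culture type, which left 1 residual degree of freedom, so a p-value measures only the spread between these 4 libraries. Of the 10 members tested, 8 were lower in GM-CSF and none was higher, where 27.3% of all genes tested were lower and 57.1% differed in either direction. These 8 had passed the level minimum through M-CSF libraries alone, so their count is no support for a difference between culture types. Hoxc10 fell by 4.17 on the log2 scale (SE 0.48, adjusted p = 3.29e-06, limma) and was lower in both genotypes. Hoxa10 fell by 3.61 (SE 0.49, adjusted p = 1.85e-05, limma).

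The adjusted p was 0.00248 for Hoxa9, 0.00486 for Hoxc6, 0.00664 for Hoxc9, 0.0155 for Hoxc8 and 0.0206 for Hoxa5 (limma), with log2 folds between -2.30 and -1.90. These members too were tested only because of their M-CSF level. With no level minimum none of the 39 passed, and the adjusted p (limma) was 0.0752 for Hoxc10, 0.0966 for Hoxa10, 0.0635 for Hoxa9 and 0.145 for Hoxa5. All of these folds are on log2(normalised reads + 5), which understates the change of low genes. Hoxb3 (log2 fold -0.34, SE 0.37, adjusted p = 0.449, limma) and Hoxb4 (0.38, SE 0.21, adjusted p = 0.132, limma) did not pass. With DESeq2 on the recovered reads 7 members passed as lower (19.5% of all genes), and Hoxc10 did not (log2 fold -8.78, SE 4.002, adjusted p = 0.0679).

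In the single pairs, GM-CSF over M-CSF, 8 of the 10 members at the level minimum were at least 2-fold lower in each genotype and 0 were higher. Of all genes at that minimum, 15.8% were lower and 11.3% higher by that rule in db/db, and 15.7% were lower and 12.0% higher in db/+. Here too the 8 members had passed the minimum through M-CSF libraries alone. Their count is therefore no support for a difference between culture types. With the empty GM-CSF library set to 3 read pairs and the M-CSF value as observed, Hoxc10 was at least 19.02-fold lower in the db/db GM-CSF culture and at least 8.62-fold lower in the db/+ one. The exact intervals, which also hold the counting error of the M-CSF value, allowed ratios of up to 0.0658 in db/db and 0.149 in db/+. By the same measure Hoxa10 was at least 5.08-fold lower in the db/+ GM-CSF culture (ratio up to 0.268), and its ratio in db/db was 0.0166 (95% interval 0.000406 to 0.0933). Intervals here are exact, are taken on read pairs and cover counting error only.

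Hoxb4 had a GM-CSF over M-CSF ratio of 1.56 (1.13 to 2.14) in db/db and 1.10 (0.814 to 1.47) in db/+. Scaling to total reads instead of the authors' factors moved the median of all kept genes by -0.35 in db/db and -0.32 in db/+ (log2), and turned the log2 fold of Hoxb4 in db/+ from 0.13 into -0.18. Under that scaling its log2 fold in db/db was 0.28, against 0.62 with the authors' factors. Hoxb3 had a ratio of 0.759 in db/db (0.330 to 1.59) and 0.759 in db/+ (0.370 to 1.62). These comparisons share libraries with the genotype comparisons below, so they are not independent of them.

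db/db and db/+ were then compared within M-CSF. Summed over their clusters, Hoxa and Hoxc had more normalised reads in the db/db culture, and Hoxb had fewer. Of the 10 members at the level minimum, 5 (Hoxa5, Hoxa10, Hoxc8, Hoxc9 and Hoxc10) were at least 2-fold higher in the db/db M-CSF culture and 0 were lower. Of all genes at that minimum, 5.05% were higher and 0.777% lower by the same rule. Of these 5, Hoxa5, Hoxc8 and Hoxc9 had passed the minimum only through the db/db M-CSF library. So had Hoxa9 and Hoxc6, which stayed under 2-fold on log2(normalised reads + 5). The minimum thus favoured members higher in db/db, and the count of 5 is no support for a difference between genotypes. Without any minimum on level, 26 members had the higher value in db/db, 11 in db/+, and 2 had no read in either. Hoxb7, Hoxc12, Hoxd4 and Hoxd13 count as higher on 2 reads against 0, and the same count over all genes was not made. The count therefore does not show a rise across all members.

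Hoxa10 had a ratio of 3.87 (95% interval 2.29 to 6.87), the largest among the 10 members. The ratio of Hoxc10 was 2.12 (1.36 to 3.31) and that of Hoxc9 was 2.90 (1.05 to 8.46). The intervals of Hoxa5 (2.97, 0.920 to 12.5), Hoxc8 (2.73, 0.873 to 9.10), Hoxc6 (2.39, 0.877 to 6.35) and Hoxa9 (1.65, 0.722 to 3.998) reached below 1. Hoxb3 had a ratio of 0.852 (0.449 to 1.69). Hoxb4 had a ratio of 0.691 (0.504 to 0.945). Of the 17 members detected in both M-CSF libraries, 14 had the higher value in db/db, and Hoxa4, Hoxb3 and Hoxb4 had the lower one. The share of all genes with the higher value in db/db was not counted.

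**Figure D3:**
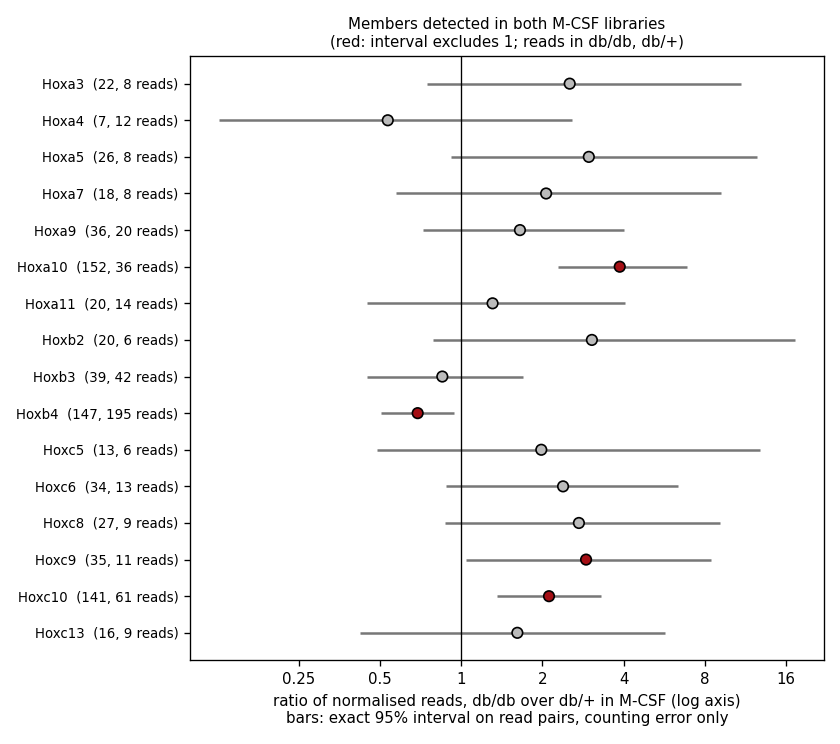
Ratio of normalised reads, db/db over db/+ in M-CSF (log axis), for members detected in both libraries, with exact 95% intervals on read pairs that cover counting error only. Hoxa10 lies farthest to the right at 3.87, and Hoxb4, Hoxb3 and Hoxa4 are the 3 members left of 1.

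Summed by cluster, Hoxa had 304 normalised reads in the db/db and 159 in the db/+ M-CSF culture, a ratio of 1.92 (1.47 to 2.52). Hoxc had 253 in the db/db and 109 in the db/+ M-CSF culture, a ratio of 2.33 (1.66 to 3.10). Without Hoxa10 and without Hoxc10 the ratios were 1.38 (1.01 to 1.92) for Hoxa and 2.58 (1.57 to 3.87) for Hoxc. Hoxb had 191 in the db/db and 252 in the db/+ M-CSF culture, a ratio of 0.757 (0.585 to 0.983), and without Hoxb4 that ratio was 0.944 (0.579 to 1.53). The Hoxd ratio of 0.762 (0.296 to 2.26) rested on 16 reads in the db/db and 19 in the db/+ culture.

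**Figure D4:**
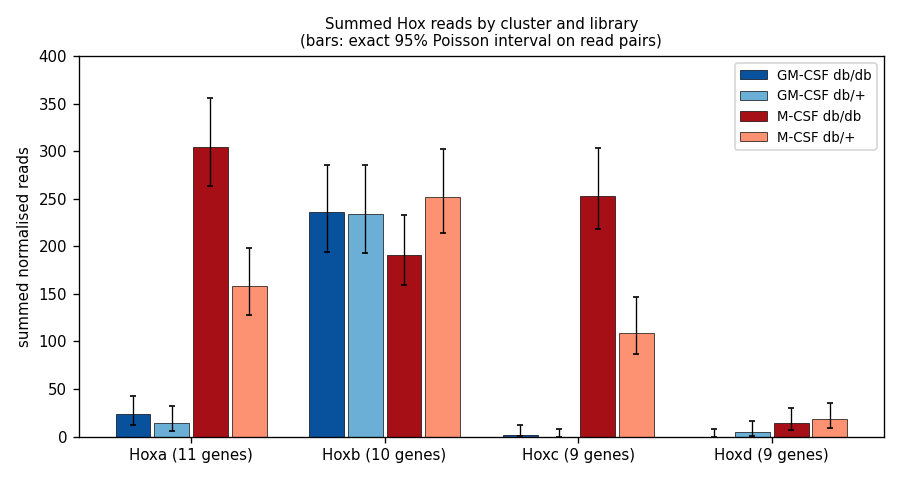
Summed normalised reads of all members of each cluster in each library, with exact 95% Poisson intervals on read pairs. Hoxb lies between 191 and 252 in all 4 libraries, whereas Hoxa and Hoxc are near 0 in GM-CSF and highest in the db/db M-CSF culture, at 304 and 253.

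Within GM-CSF, db/db and db/+ could hardly be compared outside Hoxb. Of the 10 members at the level minimum 0 were at least 2-fold apart, where 1.06% of all genes at that minimum were. Below the minimum Hoxb7 had 5.4 normalised reads (5 reads) in db/db and 0 in db/+. Hoxb4 had a db/db over db/+ ratio of 0.98 (0.726 to 1.32) and Hoxb3 of 0.851 (0.347 to 1.92). Over all 39 members, 7 had the higher value in db/db, 7 had it in db/+ and 25 had no read in either.

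In the additive model over both culture types, limma called 0 of 10 members for genotype, and 0.00733% of all genes tested. Hoxa10 was the 1 member under 0.05 before adjustment, with a log2 difference of 1.17 (SE 0.49, adjusted p = 0.9996, limma). edgeR on the recovered reads also called 0 of 10 and 0.755% of all genes, with Hoxa10 at an adjusted p of 0.154 and again the 1 member under 0.05 before adjustment. DESeq2 called 0 of 10 and 0.0147% of all genes, with 0 members under 0.05 before adjustment. That model assumes the same genotype difference in both cultures, and no interaction could be tested.

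Markers of other cell types also differed between the M-CSF cultures. Of 22 stromal markers, 21 were at the level minimum and 19 of them were at least 2-fold higher in the db/db than in the db/+ M-CSF culture, with a median log2 fold of 1.40 where the median of all kept genes was 0.02. Their levels summed to 64692 in the db/db and 63791 in the db/+ GM-CSF culture, and to 162318 in the db/db and 57061 in the db/+ M-CSF culture. The GM-CSF sums were mostly Fn1 and Fstl1, and the defining fibrillar collagens were near 0 there. Col1a1 had 3.2 normalised reads in the db/db and 6.7 in the db/+ GM-CSF culture, and 5709 in the db/db and 2273 in the db/+ M-CSF culture. Col3a1 had 0 in the db/db and 1.1 in the db/+ GM-CSF culture, and 1670 in the db/db and 666 in the db/+ M-CSF culture.

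Osteoblast markers followed the same pattern, with 3 of 4 kept genes at least 2-fold higher in the db/db M-CSF culture. Sp7, a master factor of bone-forming cells, had no read in either GM-CSF culture, and 354 in the db/db and 126 in the db/+ M-CSF culture. The 7 osteoblast markers summed to 276 in the db/db and 299 in the db/+ GM-CSF culture, nearly all of it Runx2, and to 2510 in the db/db and 899 in the db/+ M-CSF culture. Macrophage markers, by contrast, had a median log2 fold of -0.08 between the M-CSF cultures, with 0 of 8 at least 2-fold apart. Haematopoietic progenitor markers had a median of -0.01, with 0 of 8 kept genes apart. Of the kept markers of other cells, 2 of 5 for B cells and 1 of 4 for erythroid cells were at least 2-fold higher and 1 of 2 for T and NK cells was lower in the db/db M-CSF culture, and 0 of 6 for neutrophils and 0 of 4 for endothelium were apart. Between culture types, 4 of the 8 kept progenitor markers were at least 2-fold lower and 2 higher in GM-CSF in each genotype. Of the 6 neutrophil markers, 5 were lower and 1 was higher in each genotype. Of all kept genes, 15.8% were lower in db/db and 15.7% in db/+ by that rule. The part of stromal, osteoblast, progenitor, neutrophil or other cells in the Hox values was not tested.

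Other transcription factors of limb and body mesenchyme were listed beside the Hox genes. Of 20 such homeobox and T-box genes, 8 were at the level minimum, and 5 of these were at least 2-fold higher in the db/db than in the db/+ M-CSF culture (median log2 fold 1.07). Prrx1, a marker of limb mesenchyme, had 7.5 normalised reads in the db/db and 3.4 in the db/+ GM-CSF culture, and 1745 in the db/db and 536 in the db/+ M-CSF culture. Tbx15, a T-box factor of skeleton and skin mesenchyme, had no read in either GM-CSF culture, and 270.1 in the db/db and 77.0 in the db/+ M-CSF culture. Shox2, which patterns the upper segment of the limb, had 124 in the db/db and 55.2 in the db/+ M-CSF culture.

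**Figure D5:**
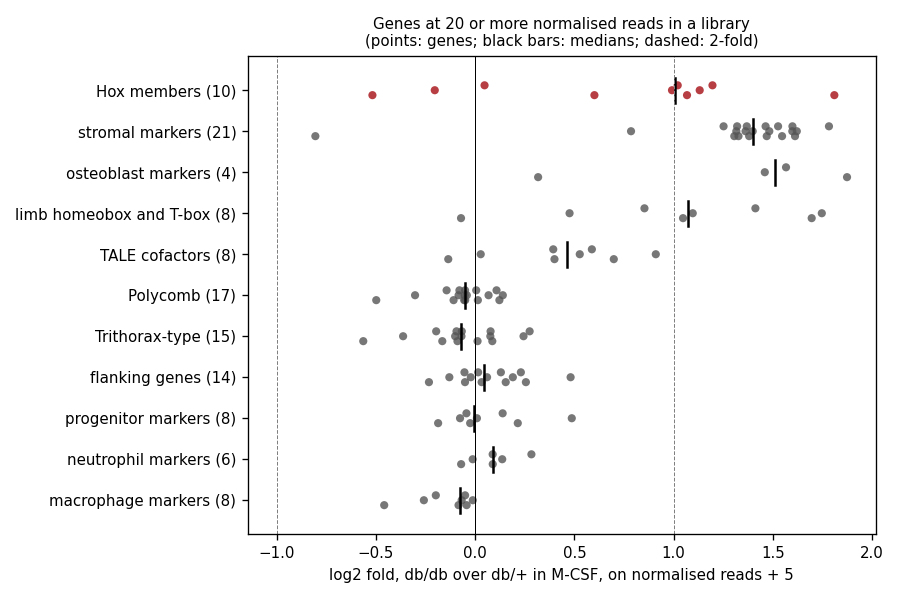
Log2 fold on normalised reads + 5, db/db over db/+ in M-CSF, of each gene at 20 or more normalised reads in a library, for the Hox members and 10 other lists, with black bars at the medians. The stromal and osteoblast medians lie at 1.40 and 1.51, the Hox members spread from -0.52 (Hoxb4) to 1.81 (Hoxa10), and the macrophage and progenitor medians lie at -0.08 and -0.01.

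Of 9 cofactors of the TALE class, which bind DNA together with Hox proteins, 7 were detected in each GM-CSF culture and 8 in each M-CSF culture. Meis1 had 73.2 normalised reads in the db/db and 41.5 in the db/+ GM-CSF culture, and 207 in the db/db and 156 in the db/+ M-CSF culture. Meis2 had 4.3 in the db/db and 0 in the db/+ GM-CSF culture, and 40.1 in the db/db and 19 in the db/+ M-CSF culture. Pknox2 was the 1 cofactor at least 2-fold higher in GM-CSF, with 101 in the db/db and 94.2 in the db/+ GM-CSF culture, against 18.3 in the db/db and 10.5 in the db/+ M-CSF culture. None of the 8 kept cofactors was at least 2-fold apart by genotype in either culture on log2(normalised reads + 5). The plain ratio of Meis2 in M-CSF, db/db over db/+, was 2.11 (0.965 to 4.96).

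Genes for the chromatin complexes that act on the clusters differed by culture type in a few cases. Of 17 Polycomb genes, 2 were at least 2-fold lower in GM-CSF in db/db and 3 in db/+, and none differed by genotype. Of all kept genes, 15.8% were lower and 11.3% higher by that rule in db/db, and 15.7% were lower and 12.0% higher in db/+. The counts of Polycomb and activator genes therefore do not set them apart from other genes. Cbx6, a Polycomb chromodomain protein, had 24.7 in the db/db and 13.5 in the db/+ GM-CSF culture, and 837 in the db/db and 834 in the db/+ M-CSF culture. Jarid2, which helps recruit Polycomb complex 2, had 1448 in the db/db and 1422 in the db/+ GM-CSF culture, and 2968 in the db/db and 3055 in the db/+ M-CSF culture. Of 15 measured Trithorax-type genes and related activators, Kdm6b was at least 2-fold lower in GM-CSF in db/+ alone, and Mllt3 was at least 2-fold higher in both genotypes, with 1007 in the db/db and 884 in the db/+ GM-CSF culture, and 288 in the db/db and 237 in the db/+ M-CSF culture. The core subunits Ezh2, Suz12 and Eed and the activator gene Mll1 (Kmt2a) were not 2-fold apart in any comparison.

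Genes that flank the clusters were examined as well. Of 17 flanking genes 14 were at the level minimum, and 0 were at least 2-fold apart by genotype in either culture (median log2 fold 0.05 in M-CSF). By culture type 1 was at least 2-fold higher in GM-CSF in each genotype and 0 were lower. That gene, Tax1bp1 near Hoxa, had 11891 in the db/db and 11446 in the db/+ GM-CSF culture, and 5850 in the db/db and 5257 in the db/+ M-CSF culture. Skap2, next to Hoxa, had 5855 in the db/db and 5811 in the db/+ GM-CSF culture, and 4644 in the db/db and 5082 in the db/+ M-CSF culture. Cbx5, near Hoxc, had 2838 in the db/db and 2838 in the db/+ GM-CSF culture, and 2998 in the db/db and 2147 in the db/+ M-CSF culture, a ratio of 1.40 (1.29 to 1.51). The ParaHox genes are relatives outside the clusters, and the Cdx genes among them act upstream of Hox genes in the embryo. Those listed had at most 6.1 normalised reads in any library.

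Of 19 noncoding RNAs, microRNAs and Evx genes within the clusters 6 were measured, and none reached the level minimum. Hoxa11as, antisense to Hoxa11, had 10.4 in the db/db and 14.3 in the db/+ M-CSF culture, about the level of Hoxa11 itself. Hotair, a noncoding RNA of the Hoxc cluster, had 0 in the db/db and 5.7 in the db/+ M-CSF culture. Exons of 16 of the 39 members overlap those of another gene in the GENCODE annotation, 10 of them on the opposite strand. The sources used here do not say whether the libraries keep strand, so reads of Hoxa11 and Hoxa11as, of Hoxa3 or Hoxa7 and 2700086A05Rik (Hoxaas3), and of Hoxb3 and Hoxb3os cannot be told apart. Exons of Hoxc5 and Hoxc10 overlap on the same strand in that annotation, so their values are uncertain in the same way.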

How the data were processed

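Ribosome-depleted total RNA of 4 bone marrow cultures was sequenced in read pairs, per the labels' protocols. Each deposited file gives 1 signal value per gene, which the authors had normalised with TMM factors according to its name. TopHat 1.2.0, edgeR and the builds mm8 and mm9 are named in the submitters' processing notes, without roles. The counting tool and annotation are not named there. Whole reads were recovered by dividing by the step of 1 read (at a tolerance of 0.1, 99.9% of values came out whole in each library). No per-sample columns were left unused (0).

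Genes at 20 or more normalised reads in a library were kept (13642). Log2 folds used log2(value + 5). Single pairs of libraries were described by ratios with exact conditional binomial 95% intervals on read pairs, and sums by exact Poisson intervals. Main effects were tested with limma 3.58.1 (trend, additive model, prior degrees of freedom 12.87), adjusted by Benjamini-Hochberg over all kept genes, two-sided, threshold 0.05. edgeR 4.0.16 and DESeq2 1.42.0 on recovered reads were alternatives, and the limma and edgeR fits were tested on simulated data. The files hold a normalised unit, for which the design named limma on log values. The same libraries stand in several comparisons. All 39 members enter the counts, sums and shares: those at 20 or more are given in every library, the others by range, count or the values that show where reads fell. From the other lists, genes at least 2-fold apart, the most abundant, or those asked for by a check of cell type were named. Further genes of those lists were named after their values were seen (Ezh2, Suz12, Eed, Mll1, Hoxa11as, Hotair). Values of some single genes are not reported here. Members and lists were chosen with earlier results of these data known. The reference used for names, transcript lengths, exon overlaps and promoters is GRCm38, another build than the authors', so no position from it was joined to the files.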

Additional observations from a re-analysis of the deposited data

How the results depend on the processing

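No paired analysis was possible because each group holds 1 library. Of the additive model's values of single members recomputed under an alternative, 162 kept their direction and either their side of the threshold or, with a library left out, a value within 1 SE. Another 32 moved by more or came to a difference of exactly 0, which 10 did, 10 lost the call and 0 reversed. Leaving out a library left no residual degrees of freedom, so those values are differences with no test. The 5 members at least 2-fold apart by genotype in M-CSF became 1 with a pseudocount of 20, 9 with no level minimum and 2 with a minimum of 50. In GM-CSF the count of 0 became 2 with a pseudocount of 1, 1 with no minimum, and 2 with empty libraries set to 3 read pairs. The 8 members apart by culture type in db/db became 19 with no minimum and 2 with a minimum of 50. In db/+ the 8 became 3 with a pseudocount of 20, 18 with no minimum, 2 with a minimum of 50 and 4 with empty libraries set to 3 read pairs. Setting empty libraries to 3 read pairs was chosen after seeing the data.

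With 1 read as the rule, 11 members counted as detected in the db/db and 8 in the db/+ GM-CSF culture. With 20 normalised reads, 2 did in the db/db GM-CSF culture, 10 in the db/db and 5 in the db/+ M-CSF culture. Against the 95th percentile of olfactory receptor genes per kilobase, also chosen after seeing the data, 13 did in the db/+ M-CSF culture. The 8 limma calls for culture type became 2 with a minimum of 50, where 3 members were tested, and 0 with no minimum, where all 39 were tested and 14 had an unadjusted p under 0.05. With no minimum limma called 0 of 22700 genes for either term. With a pseudocount of 20, 6 members passed; Hoxa5 (adjusted p = 0.0658) and Hoxc8 (0.0527) did not. The genotype count stayed at 0 in every fit run. Without each cluster's highest member the sums were 172 in the db/db and 125 in the db/+ M-CSF culture for Hoxa, 131 in the db/db and 50.6 in the db/+ M-CSF culture for Hoxc, and, for Hoxb, 35.6 in the db/db and 30.3 in the db/+ GM-CSF culture and 62.7 in the db/db and 66.4 in the db/+ M-CSF culture. Depth limits all members below about 6 reads, where a count of 0 and a count of several reads cannot be told apart.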
